A study of Daucus carota with 18 samples.

Results

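The genes described here are 159 carrot genes that were expressed in the purple outer phloem (POP) of the storage root. They were much lower in the non-purple inner phloem (NPIP) of the same roots, and many, but not all, were near silent there. They were chosen by their measured levels from the 32113 genes of the deposited tables. The estimated reads of a gene were divided by the library sum to give counts-per-million values (CPM), and the 3 libraries of a group were averaged. A gene was taken where its POP mean was at least 4 CPM and its NPIP mean was at most 1/8 of the POP mean in each of 3 sets of roots. In all 3 sets together, 191 genes met these limits. Of those, 32 were left out because the study discusses them by name, lists them in its tables of candidates, or because their locus numbers fall in the chromosome 3 regions that it mapped. The difference between POP and NPIP is therefore the choice itself, and it is described below. Counts of test calls for it are given for completeness and carry no support.

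RNA was sequenced from both tissues of 9 field-grown roots of Daucus carota at 14 weeks, with 1 library per tissue and root. The sets were dP2, with dark purple outer phloem and purple xylem, dP1, with dark purple outer phloem and non-purple xylem, and pP, with pale purple outer phloem and non-purple xylem, with 3 roots each. The inner phloem was non-purple in every set. The roots of dP1 and pP shared a family and a field in California, and those of dP2 were siblings of that family from a field in Wisconsin, so for dP2 the family, the site and the xylem colour cannot be told apart. Library totals were 6918267 to 9133313 expected counts, so that 1 read was worth 0.109 to 0.145 CPM.

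In a carrot storage root the phloem lies outside the cambium and makes up the broad outer ring that is eaten with the xylem core. The outer phloem, also called the cortex, lies under the periderm, the protective cork layer, and contains storage parenchyma and oil ducts. Anthocyanins, the purple pigments, are made from phenylalanine through phenylalanine ammonia-lyase, chalcone synthase (CHS) and later enzymes, and they are stored in the vacuole. Tissue was cut by position and colour, so that each library mixes several cell types. In such samples, fewer cells of a type and less RNA per cell cannot be told apart. The members carry locus numbers of the V1.0 carrot annotation, and the files, the reference table and the parts of the study's text and tables used here pair none of the 159 with a name or a function, so no role is given for any of them.

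The limits were much more often met in the direction of the outer phloem than in the reverse. Both limits held for 771 genes in dP2, 749 in dP1 and 527 in pP. With the tissues exchanged, NPIP at 4 CPM or more and POP at 1/8 of it or less, the counts were 169, 156 and 108. In all 3 sets, 191 genes met the limits in the first direction and 18 met them in the second. A further 332 genes met them in exactly 2 sets and 810 in 1 set. The 32 genes left out hold much of the anthocyanin pathway. They include CHS (DCAR_030786), chalcone isomerase (DCAR_027694), flavanone 3-hydroxylase (DCAR_009483), dihydroflavonol reductase (DFR, DCAR_021485), leucoanthocyanidin dioxygenase (LDOX, DCAR_006772), 1 phenylalanine ammonia-lyase (DCAR_017697) and DcbHLH3 (DCAR_002739), a regulator of the pathway. They also include 2 RAX2-like MYB genes (DCAR_012015 and DCAR_015002), MYB39 (DCAR_028146), a cationic peroxidase (DCAR_010688) and the acyltransferase gene WSD1 (DCAR_013325), whose Arabidopsis namesake makes wax esters.

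Some libraries stood apart before any comparison was made. In dP2 NPIP replicate 3, the median member had 2.25 CPM, against 0.359 and 0.454 CPM in dP2 NPIP replicates 1 and 2. Of the 159 members, 119 were highest in replicate 3 among the 3 dP2 NPIP libraries, as were 25 of the 32 genes left out. APL, which specifies phloem identity in Arabidopsis, has 3 homologs in the study's tables. Their summed level was 57.9 CPM in dP2 NPIP replicate 3, against 65.4 and 88.3 CPM in replicates 1 and 2. In the POP libraries that sum was 0.516 to 11.5 CPM, against 12.4 to 88.3 CPM in the NPIP libraries. These phloem markers were thus low in the tissue labelled outer phloem. Other genes looked at as cell type markers were higher in POP. A knotted-1-like 7 homeobox gene (DCAR_008430) averaged 9.72, 8.62 and 3.32 CPM in dP2, dP1 and pP POP, against 2.86, 0.911 and 0.546 CPM in NPIP. IRX15-LIKE (DCAR_010869) averaged 22.2, 6.49 and 10.8 CPM, against 3.12, 0.0802 and 1.07 CPM. CHS RNA was low in dP1 POP replicate 1, although the label dark purple describes colour and not an RNA level. It had 31.6 CPM there, against 4379 and 792 CPM in dP1 POP replicates 2 and 3, and 84.2, 531 and 202 CPM in pP POP. The part of these libraries in the results below was not tested beyond the values given without them.

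The median of the POP group means was 43.6 CPM in dP2, 15.97 CPM in dP1 and 20.1 CPM in pP. The median of the NPIP group means was 1.43 CPM in dP2, 0.160 CPM in dP1 and 0.503 CPM in pP. Without dP2 NPIP replicate 3, the dP2 median was 0.457 CPM. The median of POP over NPIP was 30.8-fold in dP2, 85.1-fold in dP1 and 31.6-fold in pP, where members without an NPIP read were set at a floor of 3 reads over the 3 libraries. Without dP2 NPIP replicate 3 it was 78.4-fold in dP2. For scale, all genes with a POP mean of at least 4 CPM had median POP means of 25.3 CPM in dP2, 26.4 CPM in dP1 and 27.7 CPM in pP.

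**Figure D1:**
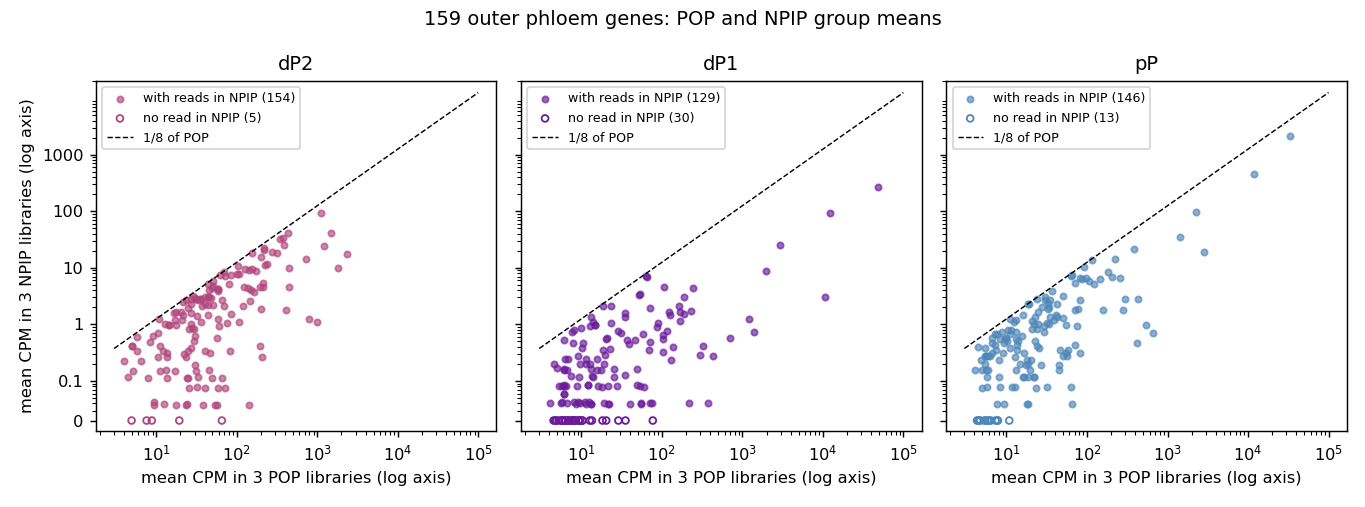
Each point is 1 of the 159 members, with its mean CPM in the 3 POP libraries (x, log axis) and in the 3 NPIP libraries (y, log axis) of dP2, dP1 and pP. Open points at the bottom are the members with no NPIP read (5 in dP2, 30 in dP1 and 13 in pP), and the dashed line is the limit of the choice, 1/8 of POP.

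NPIP levels differed widely among the members. No read was found in the 3 NPIP libraries for 5 members in dP2, 30 in dP1 and 13 in pP, and 1 to 3 reads for 23, 46 and 20. The NPIP mean was under 1 CPM for 68 members in dP2, 130 in dP1 and 102 in pP. It reached 4 CPM for 44 members in dP2, 8 in dP1 and 21 in pP. A single member, DCAR_004623, named after its values were seen, had no read in any of the 9 NPIP libraries, and 13 members had at most 3 reads in all 9. DCAR_004623 had 13.8, 24.6 and 19.7 CPM in dP2 POP, 6.11, 10.1 and 0.858 CPM in dP1 POP and 4.64, 7.52 and 0.766 CPM in pP POP. With the floor of 3 reads it was at least 168-fold higher in POP in dP2, 47.2-fold in dP1 and 36.9-fold in pP. These floors cover counting error only, since the reads carry no molecular identifiers.

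DCAR_018910 and DCAR_011902, both among the 13 and named here after their values were seen, joined this silence to a higher POP level. DCAR_018910 had 184, 168 and 77.1 CPM in dP2 POP, 24.0, 5.38 and 4.29 CPM in dP1 POP and 6.84, 43.8 and 4.27 CPM in pP POP. It had 1 NPIP read in each set. DCAR_011902 had 42.5, 64.7 and 52.2 CPM in dP2 POP, 31.6, 62.0 and 12.4 CPM in dP1 POP and 44.2, 121 and 26.7 CPM in pP POP. It had 1 NPIP read in dP2, none in dP1 and 2 in pP.

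The same ratio was met root by root for most members, with POP and NPIP libraries of the same replicate number read as 1 root. NPIP was at most 1/8 of POP for 155, 155 and 101 members in dP2 roots 1, 2 and 3, for 157, 154 and 155 in dP1 roots and for 148, 152 and 135 in pP roots. With pP NPIP numbers 1 and 3 exchanged, a pairing added after seeing the data, the pP counts were 126, 152 and 155 for POP replicates 1, 2 and 3. The median of NPIP as a share of POP was 7.45% in dP2 root 3, and 0.286% to 3.77% in the other 8 roots. All 9 roots met the ratio for 75 members, 8 roots for 55 and 7 roots for 25. DCAR_021924 and DCAR_024185 met it in 6 roots, and DCAR_019404 and DCAR_021972 in 5, these 4 named after their values were seen. In each set, POP did not overlap NPIP (lowest of 3 above highest of 3) for 157 members in dP2, 157 in dP1 and 155 in pP. Of all 32113 genes, 12.5%, 13.8% and 10.2% did so in dP2, dP1 and pP. Over all 9 libraries of each tissue, 104 members had their lowest POP value above their highest NPIP value. Of all genes, 480 did so, which is 1.49%, and since the choice used these values these counts are a description.

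**Figure D2:**
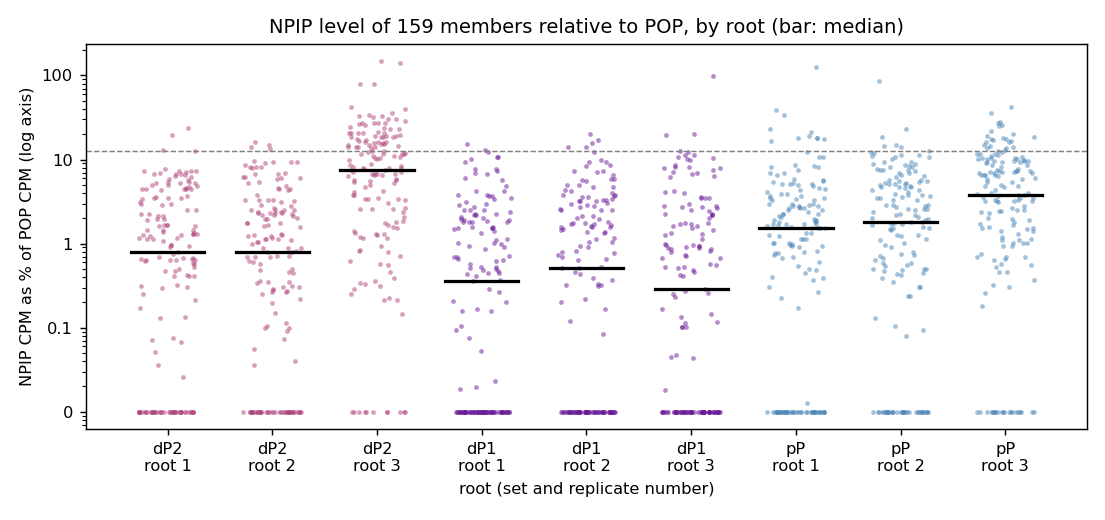
Each point is 1 member, with its NPIP level as a percent of its POP level in the library of the same replicate number (y, log axis), for the 3 roots of dP2, dP1 and pP. Bars are medians over 159 members, members with no NPIP read are drawn at 0, and the dashed line is 1/8 of POP. The bar of dP2 root 3, at 7.45%, lies above those of the other roots.

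Libraries that took no part in the choice gave a lower but still high share. They were left out by replicate number. If the pP numbers 1 and 3 are crossed, the other tissue of a left-out pP root did take part. When the limits were applied to replicates 1 and 2 of every set, 227 genes were chosen, and in the left-out replicate 3 both limits held for 48.0% of them in dP2, 83.7% in dP1 and 60.8% in pP. Leaving out replicate 1, 128 genes were chosen and the shares were 89.1%, 95.3% and 82.0%. Leaving out replicate 2, 127 genes were chosen and the shares were 91.3%, 77.2% and 83.5%. Of all genes, 1.73% to 3.79% met both limits in a single root.

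The limits cut through a continuous range of values. Just inside the POP limit were DCAR_024394, DCAR_008637 and DCAR_029805, with smallest POP means of 4.02, 4.05 and 4.06 CPM, and just outside were DCAR_015527, DCAR_026198 and DCAR_030718, with 3.95, 3.83 and 3.82 CPM. Just inside the ratio limit were DCAR_002491, DCAR_021924 and DCAR_020003, whose largest NPIP share of POP was 12.2%, 12.1% and 12.04%. Just outside were DCAR_028658, DCAR_023660 and DCAR_024176, with 12.7% each. Within 1 CPM of the POP limit lay 17 members and 30 genes outside.

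A few members carried a large part of the reads. In the POP libraries the 159 members together took 1.53% to 13.2% of all counts (median 3.73%), against 0.0179% to 0.543% in the NPIP libraries. Without the 5 members of highest mean POP level the range was 0.664% to 1.69% in POP, against 0.00766% to 0.153% in NPIP. Ranked by the deposited transcripts-per-million values (TPM), which accounts for gene length, 3 members were among the 10 highest genes of the outer phloem and 8 among the 100 highest. These 3 were DCAR_024247, DCAR_014426 and DCAR_030610, at 42946.5, 8028 and 5359.6 TPM as means of the 9 POP libraries.

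DCAR_024247 ranked first of all genes by mean TPM of the 9 POP libraries, and its rank was 45 in the 9 NPIP libraries, so it was not silent there. It had 2064, 936 and 665 CPM in dP2 POP, 68102, 23938 and 51922 CPM in dP1 POP and 60289.5, 15576 and 23838 CPM in pP POP. In NPIP it had 19.9, 15.2 and 37.4 CPM in dP2, 249, 484 and 58.5 CPM in dP1 and 1692, 1026 and 3804 CPM in pP. It alone took 6.81% of the counts of dP1 POP replicate 1. Its level in dP2 POP overlapped its level in pP NPIP.

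DCAR_014426 followed at 3999, 2032 and 991 CPM in dP2 POP, 23221, 2589 and 11030.1 CPM in dP1 POP and 26537, 2566 and 6646 CPM in pP POP. Its NPIP levels were 1.44, 1.13 and 49.7 CPM in dP2, 209, 35.9 and 30.1 CPM in dP1 and 207, 208 and 954 CPM in pP. DCAR_030610 had 2739, 1759 and 969 CPM in dP2 POP, 20979.6, 1654 and 8861 CPM in dP1 POP and 5262, 1986 and 1317 CPM in pP POP. In NPIP, DCAR_030610 had 6.24 to 17.01 CPM in dP2, 1.39 to 3.87 CPM in dP1 and 11.7 to 32.8 CPM in pP. Within dP1 and within pP, replicate 1 was the highest POP library for all 3 of these genes.

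Other leading genes were lower in level. DCAR_013627 averaged 779 ± 230 CPM in dP2 POP, 325 ± 365 CPM in dP1 POP and 668 ± 421 CPM in pP POP (SD, n = 3 each). Its NPIP means were 1.25 ± 0.909, 0.410 ± 0.32 and 0.702 ± 0.575 CPM. DCAR_013629, with a locus number 2 above and the same coding length of 1650 bases, averaged 193 ± 107, 217 ± 231 and 548 ± 633 CPM in the POP of dP2, dP1 and pP. Its NPIP means were 0.413 ± 0.620, 0.0403 ± 0.0698 and 0.967 ± 0.618 CPM. Both had counts that were not whole in 11 of 18 libraries, so RSEM shared some of their reads with other genes, which were not identified, and the level of each is uncertain. A count was taken as whole where the deposited value equalled its rounded value exactly. DCAR_019728 averaged 1000.3 ± 1156 CPM in dP2 POP, 1223 ± 395 CPM in dP1 POP and 277 ± 132 CPM in pP POP, against 1.08 to 1.79 CPM as NPIP means.

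The remaining leading genes were DCAR_014452, DCAR_024246, DCAR_023315 and DCAR_011412. DCAR_014452 averaged 1474 ± 903 CPM in dP2 POP, 1990.0 ± 721 CPM in dP1 POP and 2259 ± 1196 CPM in pP POP, and its highest and lowest means were 1.53-fold apart. DCAR_024246, the locus before DCAR_024247, averaged 452 ± 180 CPM in dP2 POP, 2955 ± 1954 CPM in dP1 POP and 1425 ± 1139 CPM in pP POP. DCAR_023315 averaged 732 ± 212 CPM in dP2 POP, 703 ± 492 CPM in dP1 POP and 254 ± 221 CPM in pP POP.

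**Figure D3:**
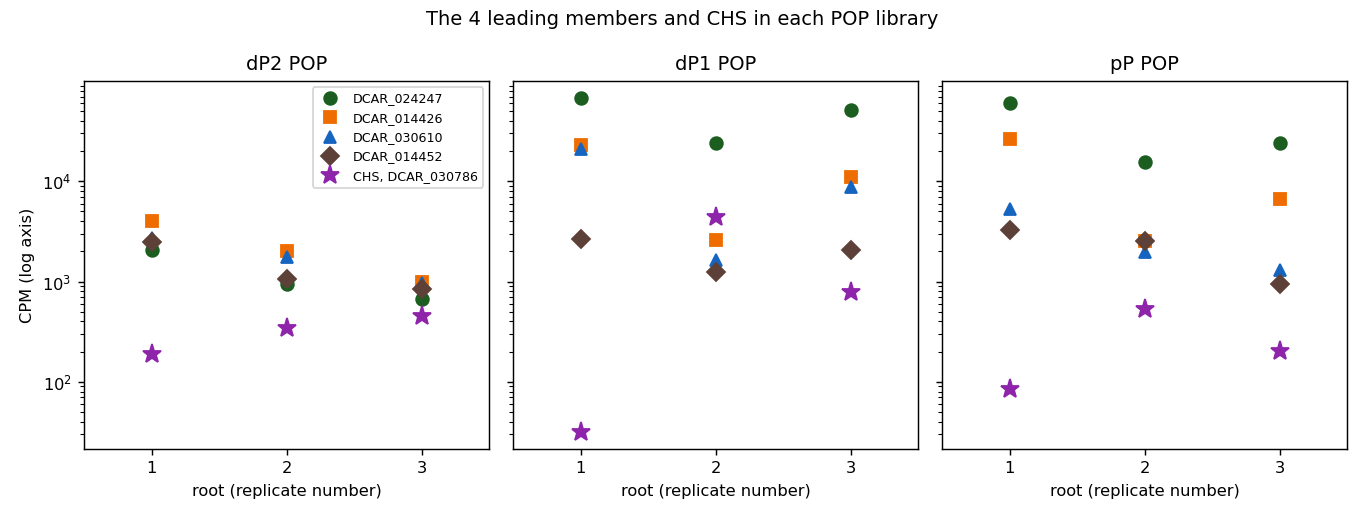
Points are CPM (log axis) of DCAR_024247, DCAR_014426, DCAR_030610 and DCAR_014452 and of CHS (star) in each POP library of dP2, dP1 and pP, by replicate number. In dP1 and pP, CHS was lowest and DCAR_024247 and DCAR_014426 were highest in replicate 1.

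Differences between roots of a set are given as a description. The median coefficient of variation over the 3 POP libraries was 39.2% in dP2, 52.5% in dP1 and 59.4% in pP. For all genes with a POP mean of at least 4 CPM it was 19.8%, 21.6% and 21.0%. In dP1, 78 members were highest in POP replicate 1, and 84 were lowest in replicate 2. In dP2, 89 were highest in replicate 2. In pP, 74 were highest in replicate 2 and 67 were lowest in replicate 1.

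The orders of the roots were set against that of CHS, a comparison chosen after the values were seen. CHS ran from lowest to highest as replicates 1, 2 and 3 in dP2 POP, 1, 3 and 2 in dP1 POP and 1, 3 and 2 in pP POP. The reverse order in all 3 sets was shown by 4 members: DCAR_024247, DCAR_014426, DCAR_003832 and DCAR_012845, the last 2 named after their values were seen. That is 2.52% of the members, against 1.04% of the 13019 genes with POP means of at least 4 CPM in every set. In dP1 alone the reverse order was shown by 36.5% of the members and 13.3% of those genes, in dP2 by 22.0% and 18.1%, and in pP by 11.3% and 16.4%. The order of CHS itself was followed in all 3 sets by 4 members (DCAR_006564, DCAR_015730, DCAR_021490 and DCAR_029082, the last 3 named after their values were seen), also 2.52%, by 2.75% of the 13019 genes, and by 8 of the 32 genes left out. DCAR_021490 had 43.6, 57.4 and 95.2 CPM in dP2 POP, 5.74, 513 and 175 CPM in dP1 POP and 1.68, 59.8 and 6.57 CPM in pP POP.

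A small group of members was much lower in POP replicate 3 of dP1 and of pP, which are different roots. In 8 members, POP replicate 3 was at most 1/4 of the mean of replicates 1 and 2 in dP1 and again in pP, and 15 of the 13019 genes met the same condition, these 8 included. The group was picked after its values were seen. Its median level was 9.79, 10.2 and 1.35 CPM in the 3 dP1 POP libraries and 5.48, 10.3 and 0.931 CPM in those of pP. In dP2 POP it was 13.96, 28.6 and 19.0 CPM, and no member of the group had the low replicate 3 there. The 8 are DCAR_004623, DCAR_006141, DCAR_008663, DCAR_011854, DCAR_012271, DCAR_022872, DCAR_026056 and DCAR_027798. Together they had 77 NPIP reads in dP2, 5 in dP1 and 2 in pP. DCAR_011854 alone had 60 NPIP reads, all in dP2.

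Some members sat side by side by locus number, although positions on the chromosomes were not used here. There were 7 runs of members at most 2 numbers apart, which held 15 members. The longest was DCAR_023312, DCAR_023314 and DCAR_023315, with POP means of 149, 82.1 and 732 CPM in dP2, 71.7, 55.1 and 703 CPM in dP1 and 11.2, 18.2 and 254 CPM in pP. DCAR_023312 and DCAR_023315 share a coding length of 465 bases and had counts that were not whole in 13 libraries each, so their levels are uncertain for the same reason. DCAR_007122 and DCAR_007123 also share a length, 669 bases, with whole counts in every library. DCAR_007122 averaged 32.8 CPM in dP2 POP, 13.4 CPM in dP1 POP and 14.8 CPM in pP POP, and DCAR_007123 averaged 61.1, 13.2 and 24.2 CPM. DCAR_007999 had 26.8, 7.63 and 7.52 CPM in the same order, and DCAR_008000 had 29.6, 9.32 and 9.92 CPM.

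The members' coding lengths were 210 to 4836 bases with a median of 1155, against 969 for all genes and 1248 for the 13019 genes. Whole counts in all 18 libraries were found for 71.7% of the members and 79.8% of those genes. DCAR_000428 and DCAR_021596, named after their values were seen, had the same TPM in all 18 libraries. They are not separate measurements, although both are counted as members.

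The first comparison between sets asked whether the members' level in the outer phloem goes with the depth of purple within 1 family. The choice set a minimum on the POP mean of each set, alone and against NPIP, so the POP levels are not independent of it, although their difference between sets was no criterion. In dP1 POP over pP POP, edgeR's quasi-likelihood test with Benjamini-Hochberg adjustment called 0 of the 159 members, at an FDR under 0.05. Of all 20253 genes tested, 0.676% were called higher and 0.657% lower in dP1. At an unadjusted p under 0.05 there were 15 members higher (9.43%) and 8 lower (5.03%), against 7.25% and 7.34% of all genes. DESeq2 called 4 higher and 3 lower of 156 members with an adjusted p, or 2.56% and 1.92%, against 2.06% and 2.33% of all genes. The members' median log2 fold change was 0.07, against 0.002 for all genes, and it was −0.20 without dP1 POP replicate 1. On simulated counts this comparison recovered 53% of genes changed by a log2 of 2 and 10% of those changed by 1. Those genes were drawn at random from all genes tested. The members varied more between the roots of a set, and recovery for the members was not measured. The smallest FDR was that of DCAR_026738, at a log2 fold change of −2.03 (FDR 0.098), followed by DCAR_006564 at 2.12 ± 0.60 (SE, FDR 0.11). Without dP1 POP replicate 2, DCAR_020426 was called, at 2.85 ± 0.63 (FDR 0.047), against 0.663% of all genes called higher and 0.415% lower in that fit. DCAR_026738 and DCAR_020426 were named after their values were seen. These misses of the threshold do not show equal levels in dP1 and pP.

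In dP2 POP over pP POP, 38 members were called higher (23.9%) and 5 lower (3.14%). Of all genes tested, 17.6% were called higher and 13.5% lower. The members' median log2 fold change was 1.27, against 0.04 for all genes, and 117 of 159 were above 0. In dP2 POP over dP1 POP, 40 members were called higher (25.2%) and 7 lower (4.40%), against 18.8% and 14.7% of all genes. Here the median was 1.18, against 0.05 for all genes. Without dP2 POP replicate 2, 22 were called higher and 3 lower (13.8% and 1.89%), against 13.8% and 9.89% of all genes in that fit. A member's dP2 POP mean had to reach 8 times its dP2 NPIP mean, which was raised in replicate 3, so the members' excess in dP2 over all genes draws on values the choice used and is a description. A choice without dP2 NPIP replicate 3, added after seeing the data, gave 205 genes. Their medians were 1.32 over pP and 1.29 over dP1. Of them, 54 (26.3%) and 58 (28.3%) were called higher and 6 (2.93%) and 7 (3.41%) lower. That choice still used the dP2 POP libraries and dP2 NPIP replicates 1 and 2, so these values are a description too. Both comparisons use the same 3 dP2 POP libraries. POP means differed by a median of 3.46-fold between the highest and the lowest set, against 1.57-fold for the 13019 genes. The highest set was dP2 for 103 members, dP1 for 28 and pP for 28.

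DCAR_012524 had the smallest FDR among the members higher in dP2. It had 369, 412 and 377 CPM in dP2 POP, 59.1, 55.0 and 46.7 CPM in dP1 POP and 49.8, 70.1 and 71.7 CPM in pP POP. The dP2 libraries lay far above the others without overlap, at a log2 fold change of 2.72 ± 0.39 over pP (FDR 2.31e-04) and 2.89 ± 0.40 over dP1 (FDR 1.53e-04). DCAR_008051 had 497, 504 and 307 CPM in dP2 POP, 26.2, 5.27 and 15.2 CPM in dP1 POP and 14.3, 55.1 and 26.2 CPM in pP POP. Its log2 fold changes were 3.92 ± 0.79 over pP (FDR 0.0020) and 4.84 ± 0.82 over dP1 (FDR 6.60e-04). Its NPIP level was also higher in dP2, at 12.3, 16.7 and 94.5 CPM, against 0 to 0.347 CPM in the 6 other NPIP libraries.

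DCAR_018730, DCAR_006458 and DCAR_026838 were also higher in dP2. DCAR_018730 had 89.6, 157 and 77.6 CPM in dP2 POP, 19.7, 23.3 and 16.7 CPM in dP1 POP and 7.74, 22.8 and 18.4 CPM in pP POP (log2 2.87 ± 0.47 over pP, FDR 5.56e-04). DCAR_006458 had 36.4, 45.8 and 25.2 CPM in dP2 POP, 5.11, 4.17 and 8.82 CPM in dP1 POP and 6.32, 6.07 and 3.61 CPM in pP POP (log2 2.62 ± 0.48 over dP1, FDR 0.0010). DCAR_026838 had 74.7, 234 and 157 CPM in dP2 POP, 7.28, 16.2 and 7.04 CPM in dP1 POP and 4.89, 4.48 and 12.2 CPM in pP POP (log2 4.55 ± 0.76 over pP, FDR 6.17e-04). None of the 3 genes overlapped between dP2 and the other sets. Over all members, 52 had every dP2 POP library above every other POP library, or 32.7%, against 17.4% of all genes tested. Every dP2 POP library lay below every other for 4 members, or 2.52%, against 16.3% of all genes tested. The choice used the dP2 POP values, so the members' shares beside all genes are a description here too.

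The members lower in dP2 were few. DCAR_024247, whose libraries are given above, fell in dP2 POP by 4.70 ± 0.88 on the log2 scale relative to pP (FDR 0.0014) and by 5.27 ± 0.91 relative to dP1 (FDR 7.28e-04). DCAR_024394 had 9.96, 1.54 and 0.576 CPM in dP2 POP, 26.9, 145 and 37.5 CPM in dP1 POP and 136, 219 and 119 CPM in pP POP. Its log2 fold changes were −5.18 ± 0.93 over pP (FDR 0.0010) and −4.08 ± 0.89 over dP1 (FDR 0.0032). DCAR_006564 was lower in dP2 than in dP1, with 8.18, 14.6 and 16.8 CPM against 38.8, 178 and 97.3 CPM (log2 −2.93 ± 0.62, FDR 0.0027). DCAR_016741 was lower in dP2 than in pP, with 2.22, 9.21 and 12.1 CPM against 28.5, 37.9 and 32.6 CPM (log2 −1.94 ± 0.49, FDR 0.0086).

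Also called lower in dP2 were DCAR_030610, DCAR_024246, DCAR_014821 and DCAR_020314 relative to dP1, and DCAR_011040 and DCAR_024185 relative to pP, the last 4 of these 6 named for completeness after their values were seen. DCAR_030610 fell by 2.51 ± 0.82 on the log2 scale (FDR 0.029), and by 1.45 with the call lost without dP1 POP replicate 1. The call was also lost without dP2 POP replicate 2 or 3. DCAR_024246 fell by 2.68 ± 0.91 (FDR 0.033), and the call was lost without dP1 POP replicate 1 or 3 or any 1 of the dP2 POP libraries. DCAR_019728 was called higher in dP2 than in pP (log2 1.93 ± 0.66, FDR 0.039), and its log2 fold change was 0.38 without dP2 POP replicate 1, which held 2328 CPM against 222 and 449.97 CPM in dP2 POP replicates 2 and 3. That call was also lost without pP POP replicate 2 or 3.

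**Figure D4:**
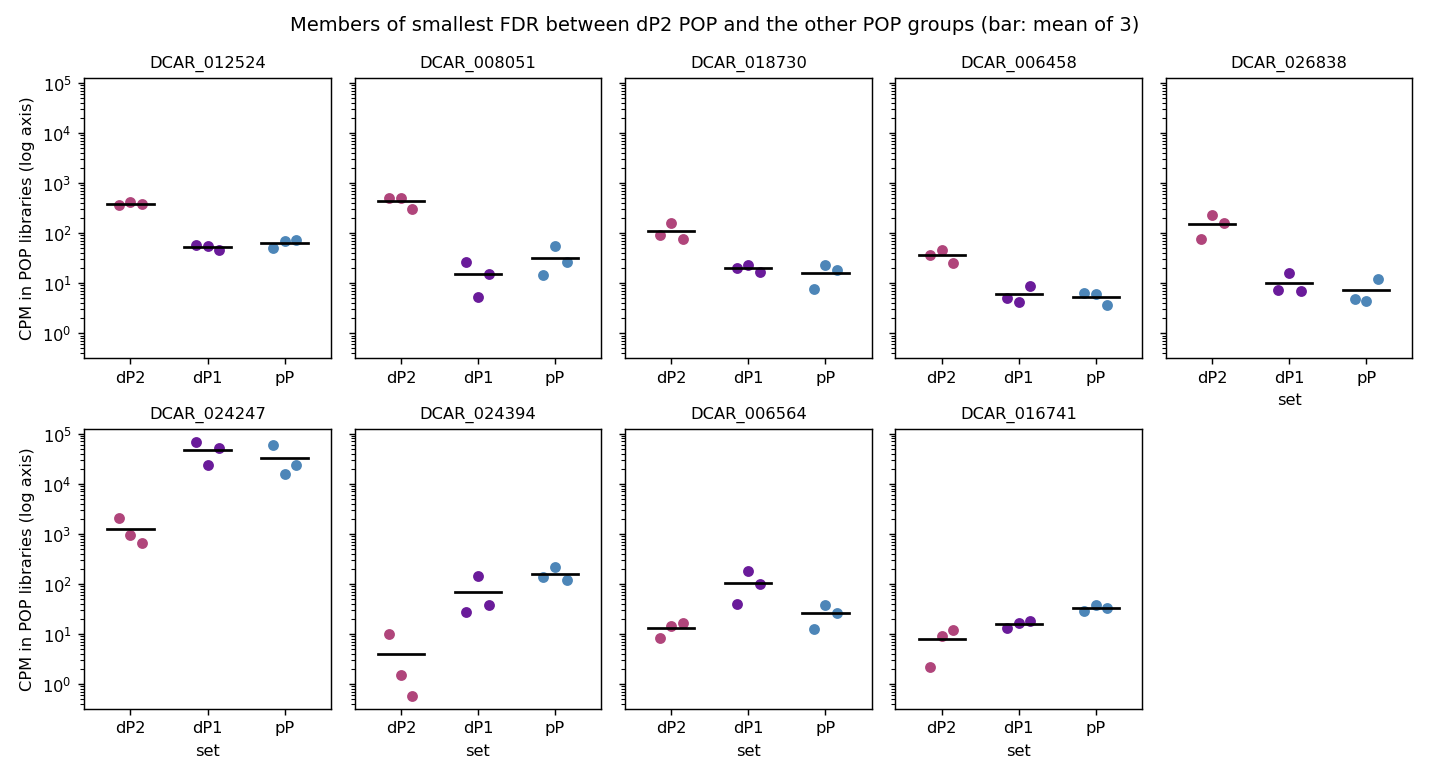
CPM (log axis) in the 3 POP libraries of dP2, dP1 and pP for the members of smallest FDR in the comparisons of dP2 POP with the other POP groups, with bars at the means. The upper row shows the 5 members higher in dP2, and the lower row shows DCAR_024247 and DCAR_024394, lower than in both other sets, DCAR_006564, lower than in dP1, and DCAR_016741, lower than in pP.

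Of the run genes, DCAR_007999 and DCAR_008000 were called higher in dP2 POP than in both other sets, at log2 fold changes of 1.94 ± 0.51 and 1.70 ± 0.54 over pP (FDR 0.011 and 0.029). DCAR_023312 and DCAR_023314 were higher in dP2 than in pP, at 3.86 ± 1.21 and 2.31 ± 0.67 (FDR 0.025 and 0.017). DCAR_007123 was higher in dP2 than in dP1, at 2.26 ± 0.68 (FDR 0.019). Of the genes at the ratio limit, DCAR_002491 had 104, 215 and 146 CPM in dP2 POP, 9.48, 0.988 and 12.9 CPM in dP1 POP and 13.6, 23.1 and 19.5 CPM in pP POP (log2 4.37 ± 1.31 over dP1, FDR 0.022). Several of these calls were lost when a single library was left out. Over pP, DCAR_008000 lost its call without pP POP replicate 1 or 2 or dP2 POP replicate 1 or 2, DCAR_023312 without any 1 of the pP POP libraries or dP2 POP replicate 1, and DCAR_023314 without pP POP replicate 1 or 3. Over dP1, DCAR_008000 and DCAR_002491 lost theirs without dP1 POP replicate 1 or 2 or dP2 POP replicate 2, DCAR_007999 without dP1 POP replicate 2, and DCAR_007123 without dP1 POP replicate 1 or 3 or dP2 POP replicate 2 or 3. The lowest log2 fold changes so obtained were 1.28 for DCAR_008000, 3.66 for DCAR_023312, 2.07 for DCAR_023314, 3.84 for DCAR_002491, 1.60 for DCAR_007999 and 1.85 for DCAR_007123.

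The 32 genes left out were fitted in the same tests, and those named here were picked after their values were seen. In dP1 POP over pP POP, DcbHLH3 (DCAR_002739) had the smallest unadjusted p among them, at a log2 fold change of 2.86 ± 0.75 (FDR 0.086). In dP2 POP over pP POP, 5 of the 32 were called, against 17.6% of all genes called higher and 13.5% lower. Each was higher: DCAR_005143, DCAR_010498, DCAR_010624, DCAR_012878 and DCAR_017697. The last, phenylalanine ammonia-lyase, the first enzyme of the pathway, was higher by 2.49 ± 0.78 (FDR 0.024). In dP2 POP over dP1 POP, 6 of the 32 were called higher and 1 lower, against 18.8% and 14.7% of all genes. In both comparisons the count called higher was near the share of all genes. The 32 met the same limits as the members, so these calls are a description. MYB5 (DCAR_028312) was higher at 2.34 ± 0.51 (FDR 0.0056) and DcbHLH3 was lower at −2.35 ± 0.73 (FDR 0.023).

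The last comparisons asked whether the size of the tissue difference, POP over NPIP, varied between sets. Each pair of these comparisons shares the libraries of 1 set, so their values are given side by side and not set against each other. They use both tissue levels that the choice used. The members' medians, their counts of calls and their shares beside all genes are therefore a description. In dP1 minus pP, 0 members were called by edgeR, against 0.0148% of genes called higher and 0% called lower. At an unadjusted p under 0.05 there were 23 members higher and 1 lower (14.5% and 0.629%), against 2.72% and 1.76% of all genes. DESeq2 called 1 higher, DCAR_030610, and 0 lower, against 0.116% and 0.0505% of all genes. On simulated counts this comparison recovered 27% of genes changed by a log2 of 2, again drawn from all genes tested. The unchanged simulated means were the same in both tissues, unlike those of the members, whose recovery was not measured. The members' median difference was 1.65 on the log2 scale, against 0.01 for all genes, and it was 1.02 without pP NPIP replicate 3. In dP2 minus pP, 0 members were called by edgeR, against 0.751% of genes called higher and 0.356% called lower. At an unadjusted p under 0.05 there were 10 members higher and 11 lower (6.29% and 6.92%), against 7.51% and 6.68% of all genes. DESeq2 called 3 higher and 4 lower (1.92% and 2.56%), against 2.59% and 1.61% of all genes. The median was 0.001, and 1.31 without dP2 NPIP replicate 3. In that fit 4 members were called higher (DCAR_012524, DCAR_015081, DCAR_020064 and DCAR_027591, the last 3 named after their values were seen) and 0 lower, or 2.52% and 0%, against 0.865% and 0.348% of all genes. With root as a block, by replicate number, 1 was called higher and 1 lower (0.629% each), against 1.05% and 0.509% of all genes: DCAR_020003, at −2.08 ± 0.42 (FDR 0.048), and DCAR_021490, at 6.98 ± 1.11 (FDR 0.035), which has no dP2 NPIP read and was named after its values were seen. In dP2 minus dP1, 0 members were called higher and 1 lower, against 1.17% and 1.25% of genes. At an unadjusted p under 0.05 there were 3 higher and 30 lower (1.89% and 18.9%), against 8.99% and 10.1% of all genes. DESeq2 called 1 higher and 11 lower (0.641% and 7.05%), against 3.65% and 3.69% of all genes. The median was −1.62, and 0.05 without dP2 NPIP replicate 3. With root as a block, 0 were called higher and 2 lower (1.26%), against 1.31% and 1.41% of all genes, DCAR_011412 at −6.48 ± 1.22 (FDR 0.034) and DCAR_020003 at −2.09 ± 0.44 (FDR 0.044).

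DCAR_011412 was the member called in dP2 minus dP1. In NPIP it had 7.66, 16.6 and 10.9 CPM in dP2, 0.125, 0.463 and 0.242 CPM in dP1 and 3.29, 1.49 and 3.56 CPM in pP. The NPIP libraries of the 3 sets did not overlap. In POP it had 522, 125 and 75.7 CPM in dP2, 532, 213 and 533 CPM in dP1 and 541, 493 and 240.1 CPM in pP, and these ranges overlapped. The tissue difference was smaller in dP2 than in dP1 by a log2 of −6.06 ± 1.10 (FDR 0.017), and the POP libraries of dP2 and dP1 alone differed by −0.79 ± 0.60 (FDR 0.32). The call in dP2 minus dP1 was lost without dP1 NPIP replicate 1 (−5.75, FDR 0.056) or replicate 3 (−5.94, FDR 0.0505). DCAR_020003 had 5.39, 9.99 and 9.58 CPM in dP2 NPIP, 1.001, 0.578 and 0.726 CPM in dP1 NPIP and 1.76, 1.14 and 0.951 CPM in pP NPIP.

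**Figure D5:**
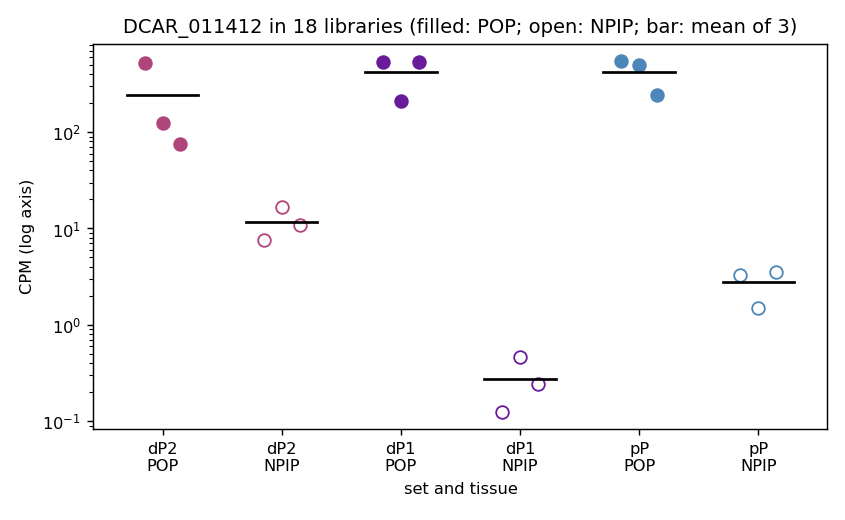
CPM (log axis) of DCAR_011412 in the POP (filled) and NPIP (open) libraries of dP2, dP1 and pP, with bars at the means of 3. The NPIP points lie at 7.66 to 16.6 CPM in dP2, 0.125 to 0.463 CPM in dP1 and 1.49 to 3.56 CPM in pP, and the POP points of the 3 sets overlap.

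For the tissue contrast itself, the members' calls follow largely from the choice, which used these values. Their counts are given without reading. In tests of POP over NPIP within each set, 123 of 157 members tested were called higher in dP2, 152 of 154 in dP1 and 122 of 152 in pP. Of all genes tested, 8.22%, 11.5% and 4.89% were called higher. The members missing from these tests, 2, 5 and 7 of 159, did not reach 1 CPM in 3 libraries of the set.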

How the data were processed

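Total RNA of both phloem tissues of 9 roots was sequenced as single-end reads, 1 library per tissue and root. The authors trimmed reads with Trimmomatic 0.32, checked them with FastQC, aligned them with Bowtie2 and deposited RSEM expected counts per gene of the V1.0 carrot annotation. The deposited TPM values were made by the authors with RSEM from these counts and effective gene lengths. The strand setting is not given in the sources used here, so reads of antisense partners cannot be told apart. RSEM shares reads that match more than 1 gene between them, which gives counts that are not whole.

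CPM was computed from expected counts and library sums, with 1 read worth 0.109 to 0.145 CPM. For tests, expected counts were rounded and a gene was tested where 3 or more libraries reached 1 CPM. edgeR 4.0.16 (R 4.3.3, TMM factors, quasi-likelihood test) was fitted once to all 18 libraries in 6 groups, with Benjamini-Hochberg adjustment over all genes tested and a threshold of 0.05. Python 3.11.15, numpy 2.4.6 and pandas 2.3.3 were used for the other steps. The fit was tested on simulated counts. Alternatives were DESeq2 1.42.0, other size factors and filters, root as a block, and leaving out each library. The study took both tissues from each root, and POP and NPIP libraries with the same replicate number were read as the same root. Deviations of same-numbered POP and NPIP libraries correlated at 0.343 to 0.438 in dP1, 0.315 to 0.537 in dP2 and −0.233 to 0.573 in pP. In pP the numbers 1 and 3 gave −0.233 and −0.094, against 0.578 for POP 1 with NPIP 3 and 0.426 for POP 3 with NPIP 1, so the pP numbers may be crossed.

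Genes named in the text were the 10 members with the largest smallest POP mean, up to 3 members per direction with the smallest FDR in each test between sets, the 3 genes on either side of each limit and the 3 largest runs of locus numbers, with others marked as named after their values were seen. Pathway lists could not be applied because the members carry no annotation in the sources used here, which hold the study's longest tables only in part. The members and the lists were chosen with earlier results of these data known.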

Additional observations from a re-analysis of the deposited data

Results flagged for a closer look

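The tissue difference of DCAR_011412 was called between dP2 and dP1 by the test of the difference itself. POP over NPIP was smaller in dP2 than in dP1 by a log2 of −6.058 (edgeR quasi-likelihood test, FDR 0.017). It was the only member called lower, or 0.629% of the members, against 1.25% of all genes. The test used both tissue levels that the choice used, and the call was lost without dP1 NPIP replicate 1 or 3. The ratio of the POP mean to the NPIP mean was 20.6 in dP2, 1540.3 in dP1 and 153 in pP. In dP1 this ratio rests on 7 NPIP reads over 3 libraries, against 307 reads in dP2 and 71 in pP.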

How the results depend on the processing

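The number of members moved with the limits of the choice, to 103 at a POP minimum of 8 CPM, 244 at 2 CPM, 86 at an NPIP limit of 1/16 of POP and 327 at 1/4, and ranged from 142 to 205 when 1 library was left out, with 205 without dP2 NPIP replicate 3. In dP1 POP over pP POP the 0 calls became 1 with only the 6 libraries compared and 7 with DESeq2, and 0 to 1 when 1 library was left out. Leaving out 1 library gave 29 to 44 calls in dP2 POP over pP POP (43 with all) and 25 to 48 in dP2 POP over dP1 POP (47 with all). For the differences of POP over NPIP, DESeq2 called 1 member in dP1 minus pP, 7 in dP2 minus pP and 12 in dP2 minus dP1, against 0, 0 and 1 with edgeR. With root as a replicate block there were 2 in dP2 minus pP and 2 in dP2 minus dP1, and 6 in dP2 minus pP with NPIP numbers 1 and 3 of pP exchanged, a pairing added after seeing the data. Leaving out 1 library gave 0 to 4 calls in dP2 minus pP and 0 to 3 in dP2 minus dP1. The share of all genes called is given above for only some of these fits. Without it, a change in the members' count cannot be told apart from a change in the whole fit. The cause was not tested. Of 323 alternatives over the 29 called results of single genes, 284 kept the call, 39 lost it and 0 changed direction. A floor of 3 reads over the 3 NPIP libraries of a set limits how low an NPIP level can be read.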
